A study of Mus musculus with 8 samples.

Results

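The 10 genes described here mark endothelial cells, the lining of blood vessels: Pecam1, Cdh5, Cldn5, Kdr, Flt1, Tek, Tie1, Emcn, Vwf and Esm1. They were taken by name, with all array probe sets that the platform annotation assigns to a single gene, which gave 10 of 18194 genes and 14 of 34958 single-gene probe sets. Their RNA was measured in 8 untreated neuroblastomas of LSL-MYCN;Dbh-iCre mice on Affymetrix mouse genome arrays, 6 tumors from the adrenal (tumors 1 to 6) and 2 from the superior cervical ganglion (tumors 7 and 8). In these mice a human MYCN transgene in the ROSA26 locus is switched on by Cre recombinase in cells that use the Dbh promoter, that is, in noradrenergic cells of the sympathetic lineage. All 8 tumors carried both transgenes, the ages of the mice were not given in the labels, and normal tissue was not analysed here. The arrays measured whole excised tumors, in which vessels are mixed with tumor cells and other host tissue. Whether the tumors are from different mice is not stated in the labels, and p-values measure only the spread between these tumors, which may be technical.

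Endothelial cells hold together through junction proteins, of which VE-cadherin (Cdh5) and claudin-5 (Cldn5) are the best known. They sense vascular endothelial growth factor (VEGF) through the receptors Kdr and Flt1 and angiopoietins through Tek, with Tie1 as its partner. Growing vessels extend tip cells that follow VEGF and secrete endocan (Esm1), while mature vessels are wrapped by pericytes.

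Promoters are shown for 4 genes with a Pearson r of 0.80 or more in each of their pairs over the tumors, Flt1, Tek, Tie1 and Emcn, and for Cldn5, whose r to them was lower. Each sequence holds the 250 bases before the annotated transcription start, from RefSeq on assembly GRCm38.p6, written 5′ to 3′ on the strand of the gene. Capitals mark GGAA on either strand, read as GGAA or TTCC, the core letters bound by transcription factors of the ETS family, several of which act in endothelial cells.
Flt1 (chr5:147726012-147726261, minus strand): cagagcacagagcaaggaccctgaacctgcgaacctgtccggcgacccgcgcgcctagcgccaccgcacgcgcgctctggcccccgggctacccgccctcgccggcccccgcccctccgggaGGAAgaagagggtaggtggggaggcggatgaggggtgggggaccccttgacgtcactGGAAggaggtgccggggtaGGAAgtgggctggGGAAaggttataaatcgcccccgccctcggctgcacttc
Tek (chr4:94739039-94739288, plus strand): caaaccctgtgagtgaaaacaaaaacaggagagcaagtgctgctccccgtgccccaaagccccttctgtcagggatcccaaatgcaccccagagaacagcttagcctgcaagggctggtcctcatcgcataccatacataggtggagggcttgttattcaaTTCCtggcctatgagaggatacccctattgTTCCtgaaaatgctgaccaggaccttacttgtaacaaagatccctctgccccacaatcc
Tie1 (chr4:118489850-118490099, minus strand): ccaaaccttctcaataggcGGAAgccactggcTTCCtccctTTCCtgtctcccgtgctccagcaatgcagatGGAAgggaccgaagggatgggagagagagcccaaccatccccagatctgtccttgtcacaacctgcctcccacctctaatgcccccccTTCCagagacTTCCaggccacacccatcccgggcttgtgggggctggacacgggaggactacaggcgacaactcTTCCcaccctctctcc
Emcn (chr3:137340828-137341077, plus strand): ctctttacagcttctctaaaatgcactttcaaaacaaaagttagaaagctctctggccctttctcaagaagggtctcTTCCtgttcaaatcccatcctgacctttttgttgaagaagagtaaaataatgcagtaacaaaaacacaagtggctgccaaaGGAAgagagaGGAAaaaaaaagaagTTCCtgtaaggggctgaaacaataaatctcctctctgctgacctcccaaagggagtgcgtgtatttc
Cldn5 (chr16:18776597-18776846, plus strand): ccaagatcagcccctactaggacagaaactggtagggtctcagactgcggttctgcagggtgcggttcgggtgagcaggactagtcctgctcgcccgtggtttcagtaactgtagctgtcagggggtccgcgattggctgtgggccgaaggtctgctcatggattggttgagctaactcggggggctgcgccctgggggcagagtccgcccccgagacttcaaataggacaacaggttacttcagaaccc

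The letters occurred 4 times in Flt1, 2 times in Tek, 7 times in Tie1 and 4 times in Emcn, and 0 times in Cldn5. Among the other members, Kdr held 4 and Esm1 held 3, although their r to Flt1, Tek, Tie1 and Emcn was lower too. The r to those 4 genes was 0.32 to 0.65 for Cldn5, 0.52 to 0.73 for Kdr and 0.23 to 0.66 for Esm1. In all, 7 of the 10 members had a promoter in the table used, with Pecam1, Cdh5 and Vwf lacking an entry. For Cdh5 the r to the same 4 genes was 0.79 to 0.82. GGAA is a common word: 93.4% of 32851 promoters of the same length held it, with a median of 3 per promoter. The longer form AGGAAG, which contains GGAA, was present in Flt1, Tie1 and Emcn and in 29.5% of all promoters. CACGTG, the E-box that MYC proteins prefer and its own reverse complement, was in 0 of the 7 member promoters and in 6.02% of all promoters. These matches are descriptions of letters and not of binding.

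The deposited values are on a log2 scale and already background-corrected and normalized. A level was called detected where it exceeded the detection limit of its array. That was the 95th percentile of 84 probe sets of olfactory, vomeronasal and taste receptors, which were taken as mostly silent outside sense organs. This limit lay between 6.71 and 7.21. Levels of different genes are not set against each other, since probe sets differ in how they hybridize. Some tumors stood apart before any endothelial gene was considered. In tumor 7 the mean of 9 sympathetic neuroblast genes was -2.65 after centring each gene over the tumors, and in tumor 6 the mean of 7 hepatocyte genes was 5.51. The Gapdh signal near the 3′ end exceeded that near the 5′ end by 5.51 in tumor 1 and by 0.47 to 1.57 in the others, a gap that widens as RNA is degraded.

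Of the 80 member values, 10 genes in 8 tumors, 39 lay above the detection limit. Kdr alone was above it in all 8 tumors, which is 1 of 10 members where 54.6% of all genes were detected in all tumors. That count rests on the limit chosen and was 8 of 10 with log2 5 as the limit. Vwf was detected in 7 tumors, Cdh5 and Flt1 in 6, Esm1 in 5 and Cldn5 in 4. Pecam1, Tek and Emcn each passed the limit in 1 tumor, tumor 8, and Tie1 passed it in none. By tumor, 9 of the 10 genes were detected in tumor 8 and 6 each in tumors 6 and 7. The counts were 5 each in tumors 2 and 4, 4 in tumor 1, 3 in tumor 5 and 1 in tumor 3. They depend on the limit of each array. Esm1 at 6.93 passed the limit of 6.73 in tumor 4. In tumor 1 the limit was 7.18, which Esm1 at 6.86 and Cldn5 at 7.10 missed. The share of probe sets detected ran from 49.99% in tumor 2 to 57.93% in tumor 6. A level below the limit does not show that a gene was silent, and the whole-tumor values cannot tell fewer endothelial cells apart from less RNA per cell.

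**Figure D1:**
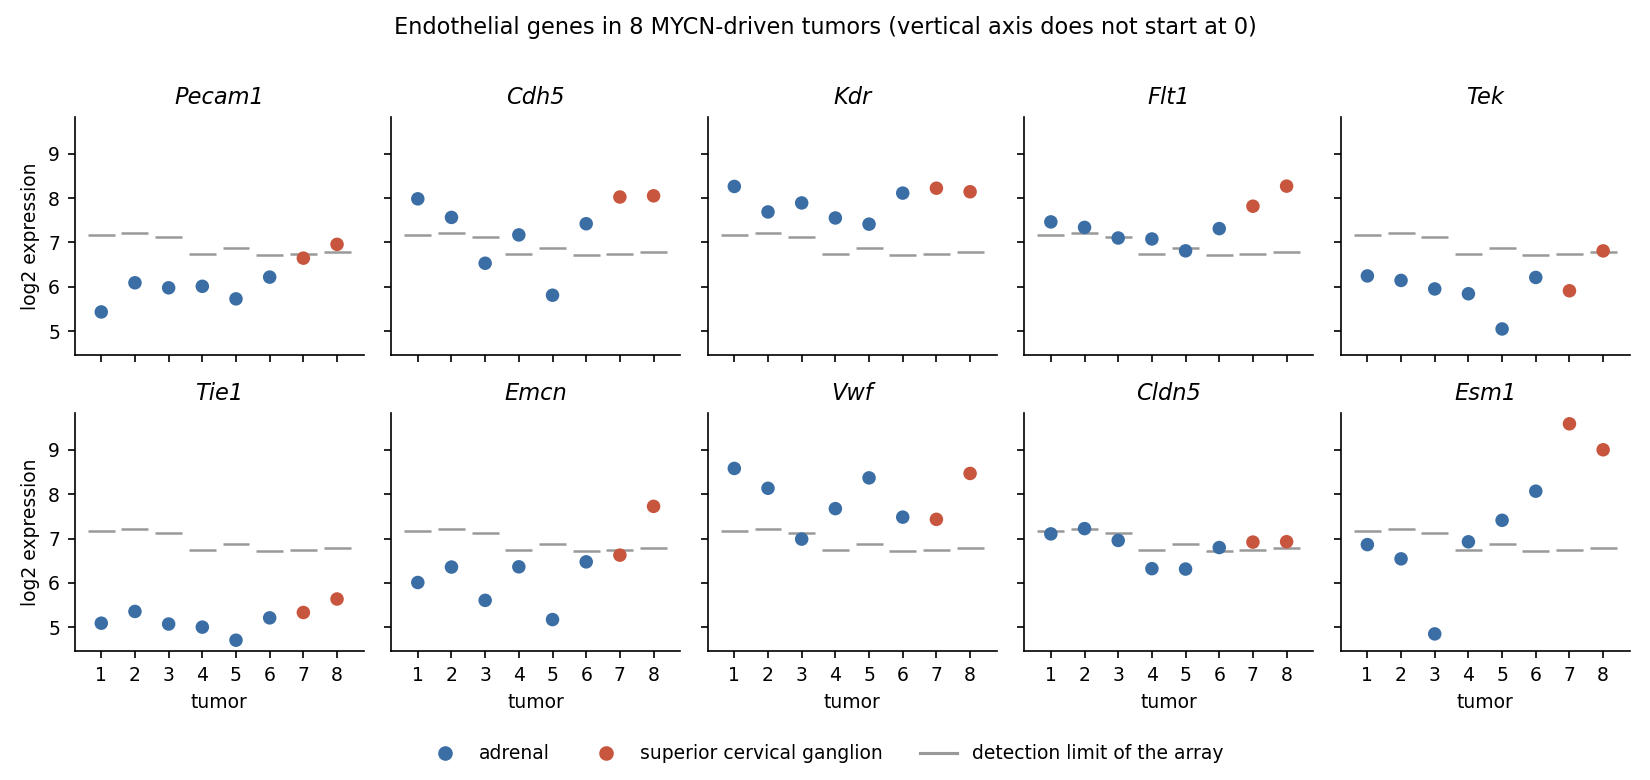
Level of each of the 10 endothelial genes (vertical axis, log2 expression, not starting at 0) in tumors 1 to 8 (horizontal axis), 1 point per tumor, blue for adrenal and red for superior cervical ganglion; grey bars give the detection limit of each array. Kdr lies above the bars in all 8 tumors, Tie1 below them in all 8, and the red points of Esm1 at 9.59 and 9.001 lie above all its blue points.

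The junction and adhesion genes were Pecam1, Cdh5 and Cldn5. Cdh5, the adherens junction cadherin of endothelium, read 7.98, 7.56, 6.53, 7.17, 5.81 and 7.42 in adrenal tumors 1 to 6 and 8.02 and 8.05 in ganglion tumors 7 and 8. Both ganglion values lay above all adrenal values, with tumor 1 close below them, and the difference of the means was 0.96 ± 0.50 (SE) with a 95% interval from -0.17 to 2.09. Its other probe set read 4.27 to 4.89, was below the limit in all tumors and was too low to enter the test. With the mean of both probe sets the difference of Cdh5 was 0.43. Pecam1, an adhesion molecule at the contacts between endothelial cells and also found on platelets and leukocytes, read 5.43, 6.09, 5.98, 6.01, 5.73 and 6.22 in the adrenal tumors and 6.65 and 6.96 in the ganglion tumors. The groups did not overlap, with a difference of 0.89 ± 0.22 (95% interval 0.40 to 1.38), although only the value of tumor 8 passed its detection limit. Cldn5, a tight junction protein best known from brain vessels, lay between 6.31 (tumor 5) and 7.22 (tumor 2) in the adrenal tumors and at 6.92 and 6.93 in the ganglion tumors, inside the adrenal range. Its difference was 0.14 ± 0.27, with a 95% interval from -0.46 to 0.74, and it ran from 0.04 without tumor 5 to 0.23 without tumor 2.

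Among the VEGF receptors, Kdr varied little. Kdr, the main signaling receptor for VEGF, read 8.26, 7.69, 7.89, 7.55, 7.41 and 8.11 in the adrenal tumors and 8.22 and 8.14 in the ganglion tumors, so that tumor 1 was higher than both ganglion tumors. The difference was 0.36 ± 0.23, with a 95% interval from -0.16 to 0.89. Flt1, which binds VEGF tightly and in its soluble form acts as a trap for it, read 7.46, 7.34, 7.10, 7.08, 6.81 and 7.31 in the adrenal tumors and 7.82 and 8.27 in the ganglion tumors. The groups of Flt1 did not overlap, and the difference was 0.86 ± 0.20 (95% interval 0.40 to 1.32). Of the 3 other Flt1 probe sets, 1 was detected in 4 tumors and again had both ganglion tumors above all adrenal tumors, with a difference of 0.59. The remaining 2 were detected in 1 and 0 tumors, with differences of 0.79 and 0.38.

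Both angiopoietin receptor genes lay below the detection limits but for Tek in tumor 8. Tek, the receptor itself, read 6.24, 6.14, 5.95, 5.84, 5.05 and 6.21 in the adrenal tumors and 5.91 and 6.81 in the ganglion tumors. Tumor 5 stood below the other adrenal tumors and tumor 7 inside their range, and the difference of the means was 0.45 ± 0.35 (95% interval -0.33 to 1.24). The difference of Tek rested on single tumors, at 0.0033 without tumor 8, 0.28 without tumor 5 and 0.90 without tumor 7. Tie1, the coreceptor of Tek, ran from 4.71 (tumor 5) to 5.36 (tumor 2) in the adrenal tumors and read 5.33 and 5.64 in the ganglion tumors. Its difference was 0.41 ± 0.18, with a 95% interval from -0.01 to 0.83, over values that all lay below the detection limit, and it was 0.26 without tumor 8.

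The surface and secreted products gave both the widest and the narrowest site differences. Esm1, the proteoglycan endocan of tip cells and VEGF-exposed endothelium, read 6.86, 6.54, 4.85, 6.93, 7.41 and 8.07 in the adrenal tumors and 9.59 and 9.001 in the ganglion tumors. The difference was 2.52 ± 0.69 (95% interval 0.95 to 4.08), and the adrenal tumors alone spanned from 4.85 in tumor 3 to 8.07 in tumor 6. Emcn, a sialomucin of capillary and venous endothelium, read 6.01, 6.36, 5.61, 6.36, 5.17 and 6.47 in the adrenal tumors and 6.63 and 7.73 in the ganglion tumors. The groups of Emcn did not overlap, the nearest values being tumor 6 and tumor 7, and the difference was 1.18 ± 0.40 (95% interval 0.27 to 2.09), or 0.63 without tumor 8. Vwf, the clotting glycoprotein that endothelium stores in Weibel-Palade bodies and that megakaryocytes also make, read 8.58, 8.13, 6.99, 7.67, 8.37 and 7.48 in the adrenal tumors and 7.43 and 8.47 in the ganglion tumors. Vwf showed no order by site, with a difference of 0.08 ± 0.44 (95% interval -0.91 to 1.07) that turned to -0.10 without tumor 3 and to -0.44 without tumor 8, and reached 0.60 without tumor 7.

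**Figure D2:**
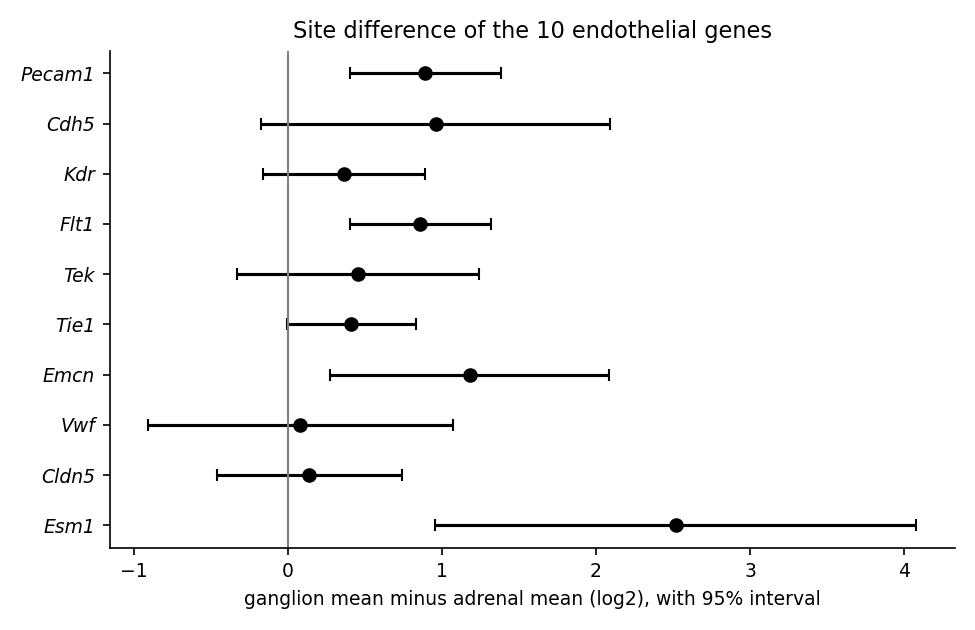
Mean of the 2 ganglion tumors minus mean of the 6 adrenal tumors for each endothelial gene (horizontal axis, log2), with the 95% interval of limma as bars; the vertical line marks 0. All 10 points lie to the right of 0, from 0.08 for Vwf to 2.52 for Esm1, and the intervals of Pecam1, Flt1, Emcn and Esm1 do not reach 0.

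All 10 members had a higher mean in the ganglion tumors, where 44.8% of all genes tested did, and their median difference was 0.66 against -0.03 over all genes. In 5 of them (Pecam1, Cdh5, Flt1, Emcn and Esm1) both ganglion tumors lay above all adrenal tumors, a pattern of 2.31% of all genes. None of the 10 passed the test over 16254 genes (limma, adjusted p from 0.903 for 7 of them to 0.991 for Vwf), in a comparison that called 0.0185% of all genes, that is 3 genes (Clvs2, Acta1 and Tnnt3, named after their values were seen). Without tumor 8 that number was 951 and without tumor 7 it was 8, with 0 members among them either way. At an unadjusted p under 0.05 in limma, 4 members were higher in the ganglion (Pecam1, Flt1, Esm1 and Emcn), where 2.68% of all genes were. An exact two-sided permutation test gave Pecam1, Flt1 and Esm1 0.0357, the smallest p that the 28 possible splits allow, and Emcn 0.0714. The share of all genes that reach 0.0357 in this permutation test was not counted. At the level of probe sets, 0 of the 13 tested passed (limma, adjusted p from 0.990 to 0.999) where 0.0165% of all probe sets did. An unadjusted p under 0.05 in limma was reached by 6, but these belong to the same 4 genes, with several of them from Flt1. The share of all probe sets under 0.05 was not counted.

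The median difference of the members was 0.94 without tumor 7, 0.52 without tumor 8 and 1.00 without tumors 6 and 7. Other tissue differed between the sites too. All 8 skeletal muscle genes were higher in both ganglion tumors than in any adrenal tumor, as 2.31% of all genes were, and their mean, each gene centred over the tumors, was 1.17 in tumor 7 and 0.62 in tumor 8 against -0.48 to -0.09 in the adrenal tumors. Of these, Atp2a1 and Tnnt3 were below the detection limit in all tumors. Pip, a gene of secretory glands chosen after its values were seen, read 12.79 in tumor 8 and 4.61 to 5.04 elsewhere. The part of this neighbouring tissue in the endothelial values was not tested.

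The endothelial genes tended to be high and low in the same tumors. With each gene centred over the 8 tumors, the mean of the 10 was 0.07, 0.01, -0.54, -0.24, -0.56 and 0.09 in tumors 1 to 6 and 0.42 and 0.76 in tumors 7 and 8. The range was 1.32, where the SD of the 6 adrenal tumors was 0.30, and it was 0.97 without tumor 8. Tumor 5 held the lowest value of 7 members, against 14.4% of all genes, and tumor 8 the highest value of 6, against 7.88%. In tumor 3, 1 of the 10 genes (Cldn5) lay above its own median over the tumors, and in tumor 8 all 10 did.

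Of the 45 pairs of members, 42 had a Pearson r above 0 over the 8 tumors, with a median of 0.62, while over all gene pairs 54.2% were above 0 with a median of 0.05. Flt1, Tek, Tie1 and Emcn had 6 pairs between 0.80 and 0.91, although most of their values, all of Tie1 and all but tumor 8 of Tek and Emcn, lay below the detection limit. By rank their pairs were looser, with Spearman values from 0.45 (Tek and Emcn) to 0.88 (Flt1 and Tie1), and the highest rank correlation among all members was that of Cdh5 and Flt1, at 0.98. Vwf stood outside, with r from -0.16 to 0.25 to the other 9 genes, and without it the median was 0.65. Part of this shared pattern came with single tumors: the median r was 0.42 without tumors 5 and 8 and 0.36 over the adrenal tumors alone. All points share the array, the RNA preparation and the tumor, so these values are descriptions.

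**Figure D3:**
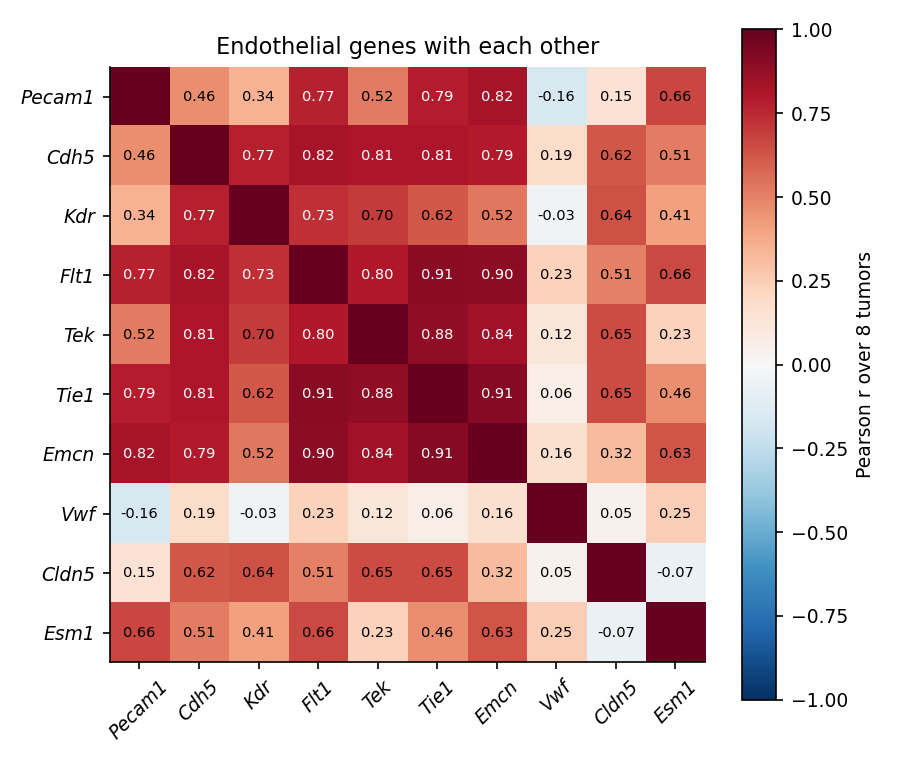
Pearson r over the 8 tumors between each pair of endothelial genes (both axes), on a color scale from -1 to 1 with the value printed in each cell. Flt1, Tek, Tie1 and Emcn share values of 0.80 to 0.91, and the row of Vwf holds only values between -0.16 and 0.25.

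Among 9939 other genes detected in all tumors, those most like the mean of the 10 members over the 8 tumors were Igfbp3 (r = 0.97), Pf4 (0.94), Plvap (0.92), C77080 (0.91), Ddah1 (0.91), Cd93 (0.90), Sgms1 (0.90) and Fbln2 (0.89). Igfbp3, a binding protein of insulin-like growth factors, read 9.75, 10.02, 8.12, 9.32, 8.83 and 10.44 in the adrenal tumors and 11.13 and 11.70 in the ganglion tumors. Plvap, the protein of endothelial diaphragms and fenestrae, was lowest in tumor 5 (7.01) and highest in tumor 8 (8.54). Cd93, a receptor on endothelial and myeloid cells, was likewise lowest in tumor 5 (7.23) and reached 9.33 and 9.25 in tumors 7 and 8.

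A further 31 genes of endothelium in general were examined beside the members. Of these, 24 had a higher mean in the ganglion tumors (44.8% of all genes), with a median difference of 0.32, and 0 passed the test over all genes (limma), while 6 were higher (2.68% of all genes) and 1 was lower (2.0% of all genes) at an unadjusted p under 0.05. In Cd93, Plvap, Sox18 and Adgrf5, 4 of the 31, both ganglion tumors lay above all adrenal tumors, against 2.31% of all genes. Their tumor mean was lowest in tumor 5 at -0.48 and highest in tumor 8 at 0.50, with 16 of 31 genes lowest in the former (14.4% of all genes) and 16 highest in the latter (7.88%). In tumor 7 it was -0.001, below the 0.42 of the 10 members in that tumor. It was 0.32 in adrenal tumor 1, so tumor 7 did not lie above all adrenal tumors in this list. Eng, a coreceptor for TGF-beta and BMP ligands, stayed between 8.17 and 8.66, and Nos3, the endothelial nitric oxide synthase, between 6.85 and 7.48. Calcrl, the receptor of adrenomedullin, was lowest in tumor 7 (6.67) and highest in tumor 8 (8.99), and Arhgef15, a guanine nucleotide exchange factor, read 7.63 in tumor 7 and 9.56 to 10.37 in the adrenal tumors. Erg, Sox7 and Sox17, transcription factors of endothelium, were below the limit in all tumors, as 7 of the 31 genes were.

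The lists for particular kinds of endothelium had smaller median differences than the 0.66 of the members; the gap between lists was not tested. For the 11 genes of tip cells and sprouting, to which Esm1 belongs by function, the median difference was 0.17. In Apln, Kcne3 and Nid2, 3 of the 11, both ganglion tumors lay above all adrenal tumors, against 2.31% of all genes. At an unadjusted p under 0.05 in limma, 2 were higher (Apln and Kcne3), against 2.68% of all genes, and 0 passed the test over all genes. Kcne3 was below the detection limit in all tumors. Apln, a secreted peptide of tip cells, lay between 7.42 and 7.57 in the adrenal tumors and read 7.68 and 7.85 in the ganglion tumors, and 7 of the 11 were highest in tumor 8. Angpt2, an antagonist ligand of Tek, ranged from 7.06 to 8.17 in the adrenal tumors and peaked at 8.63 in tumor 8. The median difference was -0.01 for 7 arterial genes and -0.16 for 7 genes of venous and inflamed endothelium. It was -0.07 for 5 lymphatic genes and 0.04 for 6 genes of the brain barrier, mostly transporters. In these lists 0 genes passed the test over all genes (limma). At an unadjusted p under 0.05 in limma, 1 venous or inflamed gene was higher (Nr2f2) and 1 lymphatic gene was lower (Prox1). Over all genes, 2.68% were higher and 2.0% were lower at that limit. Nr2f2 and Prox1 are also used by neural and other cells. Of the 6 lymphatic genes measured, Prox1, Pdpn and Reln were detected in all 8 tumors, the VEGF receptor Flt4 in 5, and Lyve1 and Mmrn1 in none. Aplnr, the apelin receptor of veins and sprouts, had the widest spread of the venous and inflamed list, from 4.67 in tumor 5 to 10.39 in tumor 1.

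The VEGF and angiopoietin system, with the ligands of Kdr, Flt1 and Tek, had a median difference of 0.08 over 11 genes. Vegfa, the ligand of Kdr and Flt1, lay between 7.89 and 8.43 in the adrenal tumors and had a difference of -0.01. Vegfc ranged from 5.85 in tumor 3 to 8.36 in tumor 8 with no order by site, and Vegfd was below the limit throughout. Pgf, a ligand of Flt1 but not of Kdr, was the single gene of these 11 with both ganglion tumors above all adrenal tumors (8.13 and 8.26 against 7.59 to 8.06). Nrp1 and Nrp2, coreceptors that neurons and endothelium both use, were lowest in tumor 7, with Nrp1 at 11.09 against 12.32 to 12.72 in the adrenal tumors. None of the 11 passed the test over all genes (limma). At an unadjusted p under 0.05 in limma, 1 was higher (Pgf), against 2.68% of all genes. At the same limit 2 were lower (Angpt1 and Nrp1), against 2.0% of all genes. Angpt1, a ligand of Tek, had a difference of -0.93 and was detected in 3 tumors.

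**Figure D4:**
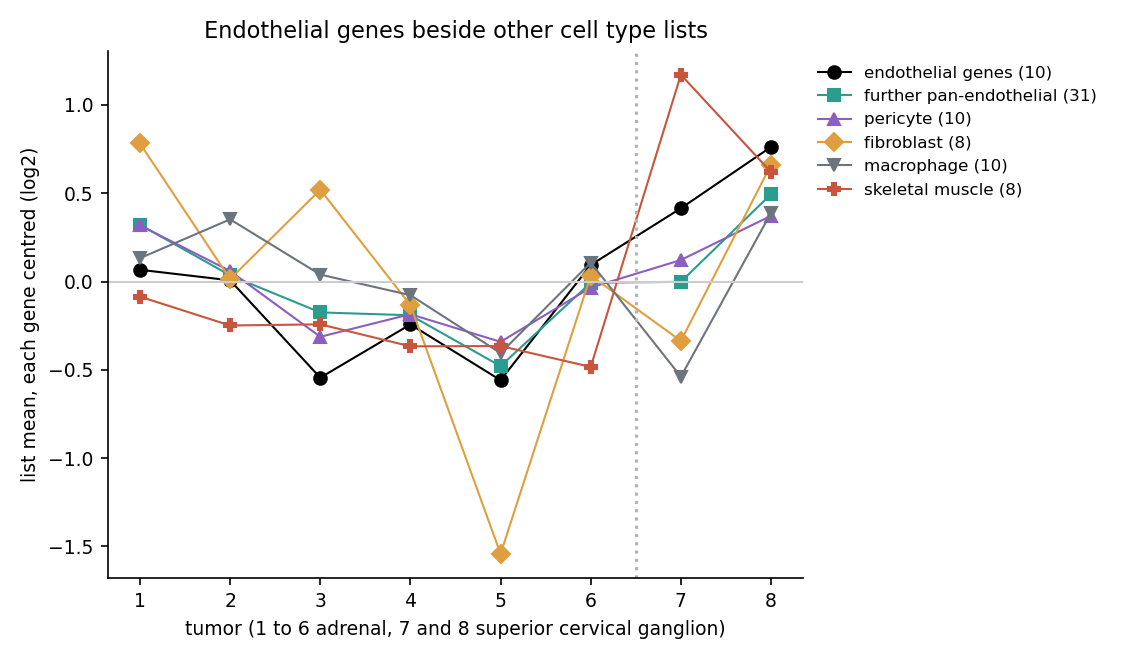
Mean of each gene list after centring every gene over the 8 tumors (vertical axis, log2) by tumor (horizontal axis; the dotted line divides adrenal from ganglion tumors); the number of genes is in brackets and lines only join the points of a list. The 10 endothelial genes rise to 0.76 in tumor 8, the fibroblast genes fall to -1.54 in tumor 5, and the muscle genes reach 1.17 in tumor 7.

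Other cells of the vessel wall and the blood moved with the endothelial genes in some tumors. The mean of 10 pericyte genes was 0.12 and 0.37 in the ganglion tumors and -0.34 to 0.32 in the adrenal tumors, and 3 of the 10 (Kcnj8, Abcc9 and Higd1b) had both ganglion tumors above all adrenal tumors, against 2.31% of all genes. Cspg4 and Mcam of the same list had lower means in the ganglion tumors, with differences of -0.29 and -0.23. Of the 10 pericyte genes, 6 (Rgs5, Pdgfrb, Cspg4, Notch3, Mcam and Des) were detected in all tumors, against 54.6% of all genes. Abcc9 was detected in 7 tumors, Kcnj8 in 3, Higd1b in 1 and Anpep in none. Pf4, a platelet chemokine that macrophages can also make, was 9.61 and 9.56 in the ganglion tumors against 7.94 to 9.14, while the platelet integrin Itga2b differed by 0.01. The platelet chemokine Ppbp and the red cell enzyme Alas2 were highest in tumor 7, with differences of 0.89 and 1.03, although Ppbp and the globin gene Hba-a1 were below the limit in all tumors. The mean of the 7 platelet and blood genes was 0.41 in tumor 7, 0.13 in tumor 8 and -0.52 to 0.41 in the adrenal tumors. In tumor 5, where 7 members were lowest, 6 of 8 fibroblast genes were lowest too, with a mean of -1.54 against -0.34 to 0.78 elsewhere. The 10 macrophage genes were low in tumor 5 (-0.41) and in tumor 7 (-0.54), although in tumor 7 the endothelial mean was 0.42. In tumor 6, which held the hepatocyte transcripts, the endothelial mean was 0.09, and the mean of 7 genes of liver sinusoid endothelium was highest, at 0.25. Of these, Clec4g read 7.43 in tumor 6 and was detected in that tumor only, whereas Oit3, Gpr182 and Dnase1l3 were below the limit in all tumors. Stab2 also passed the limit in tumor 6 only, the array with the lowest limit (6.71). It read 6.88 in both tumor 5 and tumor 6 and 6.86 in tumor 1. The part of these cells in the endothelial values was not tested.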

How the data were processed

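RNA from 8 tumors was hybridized to Affymetrix mouse genome arrays. The authors deposited log2 expression values per probe set; the processing notes of the submitters name RMA and Partek 6.6 while the Methods describe gcRMA, which the values do not settle. Scanner files were not used here, and no pair of arrays held identical values.

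Of 45101 probe sets, 34958 had 1 gene in the platform annotation, 932 had several and 9211 had none; 34754 symbols were matched to RefSeq (GRCm38.p6). Each gene was represented by its brightest probe set on average. Those exceeding log2 5 in 2 or more tumors, 16254 genes, entered the test (30285 probe sets in a separate fit) with limma 3.58.1 in R 4.3.3 (lmFit, eBayes, Benjamini-Hochberg, threshold 0.05). In simulated data the comparison found 92 of 100 genes given a log2 change of 2 and 43 of 100 given a change of 1. It called 6 unchanged genes. There each gene varied on its own, without shifts that many genes of a tumor share, so these shares need not hold for the real tumors. Python 3.11.15, numpy 2.4.6, pandas 2.3.3 and matplotlib 3.10.9 served for the rest. The number of arrays limits the precision, most of all the 2 ganglion tumors.

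The members, lists and tests were chosen with earlier results of these data known. Outside the members, named genes were those passing the test, the 3 most variable (detected in at least 4 tumors) and 2 least variable (detected in all) of each list, up to 3 detected in none, and the 8 most like the member mean; others were named after their values were seen. Alternatives covered normalization, filters, the variance model, probe set choice, the detection limit and leaving out tumors.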

Additional observations from a re-analysis of the deposited data

Results flagged for a closer look

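In 14 member probe sets and 17 list means, each over the 8 tumors and over the 6 adrenal tumors (62 groups of values), the gap between the extreme tumor and its nearest neighbour was divided by the whole range and set against the critical value of Dixon. The ratio was past it in 7 groups, where chance gives about 1 in 20. The only member was Tek, whose adrenal value in tumor 5 lay below the rest with a ratio of 0.664. The mean of the tip cell and sprouting genes was high in tumor 1 among the adrenal tumors (0.735). The hepatocyte mean was high in tumor 6, with 0.925 over all tumors and 0.933 over the adrenal tumors, and the adrenal cortex mean was high in the same tumor with 0.813 in both. The sympathetic neuroblast mean was low in tumor 7 (0.891).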

How the results depend on the processing

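The median difference of the members was 0.52 to 0.94 with each tumor left out in turn and 1.00 without tumors 6 and 7. Of 120 site differences of single members under alternatives in normalization, probe set choice and tumors left out, 118 were above 0. The 2 below 0 were those of Vwf, -0.10 without tumor 3 and -0.44 without tumor 8 (up to 0.60 without tumor 7). Among these alternatives, probe set choice could move only Cdh5 and Flt1, since each other member has a single probe set and repeats its main value. No limma fit called a member. The exact permutation test without adjustment gave 3, and how many of all genes it would give was not counted. The members with both ganglion tumors above all adrenal tumors were 5 or 6 with an adrenal tumor left out. They were 4 with array median centring or with the mean of probe sets. Without tumor 7 or tumor 8 only 1 ganglion tumor remains, so the count does not apply there. It was chosen after seeing the data, and its share over all genes, 2.31%, was taken only with the main settings. Over all genes the 3 calls became 1 with a filter at the detection limit, 6 with the mean of probe sets, 9 without tumors 6 and 7, and 2 to 951 with a tumor left out, 951 without tumor 8, where tumor 7 is alone and assumed to vary like the adrenal tumors; the cause was not tested. With log2 5 as the limit, 8 members were detected in all tumors. The range of the member mean was 0.97 to 1.32 with a tumor left out and 0.85 for the member detected in all tumors alone. No paired analysis was possible because the groups share no replicate numbers. Signal over background limits Pecam1, Tek, Tie1 and Emcn most, since these were detected in at most 1 tumor.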

Other observations

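Adipoq and Fabp4, genes of fat cells of which Fabp4 is also used by capillary endothelium, were looked at after their values were seen. Adipoq read 8.59 in tumor 6, 4.50 to 7.72 in the other adrenal tumors and 4.44 and 4.51 in the ganglion tumors. Fabp4 was detected in all tumors, from 8.08 in tumor 4 to 10.85 in tumor 6, with 9.97 and 9.03 in the ganglion tumors. Of the 10 endothelial genes, 0 had their highest value in tumor 6.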
